A study of Mus musculus with 14 samples.

Results

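The 9 genes described here cover the retinoic acid pathway from uptake of its precursor to its removal: Rbp4, Stra6, Aldh1a1, Aldh1a2, Aldh1a3, Crabp1, Crabp2, Rarb and Cyp26b1. They were taken by gene symbol from tables of 55359 Ensembl gene IDs, and all 9 had a row in each of the 14 libraries and passed the filter on low counts. They were chosen on values measured in these same libraries, namely how their levels differed between the 4 groups. Those levels and differences are therefore given as descriptions, without p-values. Where a gene of the 9 is said below to pass a threshold or keep a call, that describes the fit. It is no evidence for a difference.

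Retinol travels in blood bound to Rbp4 and can enter cells through Stra6. Inside the cell it is oxidised to retinaldehyde, and the retinaldehyde dehydrogenases Aldh1a1, Aldh1a2 and Aldh1a3 turn that into retinoic acid. Retinoic acid is carried by Crabp1 and Crabp2, acts on nuclear receptors such as Rarb, and is hydroxylated for clearance by Cyp26b1. In the developing brain, the meninges are a known site of retinoic acid synthesis by Aldh1a2, and Aldh1a1 is also known from dopaminergic neurons of the ventral midbrain.

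RNA came from ICR/CD-1 mouse pups at postnatal day 6, from either the superficial or the deep layers of their superior colliculus. This part of the midbrain takes up retinal input in its superficial layers. Between postnatal days 0 and 1 the pups had received 0.3 to 0.5 µL of saline or of 50 mM carbenoxolone (cbx), which blocks gap junctions, into the vitreous of the eye. The labels name the drug as a means to silence retinal waves. The 4 groups were saline superficial (n = 3 libraries), cbx superficial (n = 4), saline deep (n = 3) and cbx deep (n = 4). Each library pooled 3 brains, so the spread between libraries is a spread between pools and not between single pups. The drug was given to the eye and RNA was measured in the colliculus, and every pup, saline pups included, had an injected eye.

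Total counts ran from 32004952 to 48776827 per library. The 8 neuronal markers summed to between 4703 and 5758 units of CPM (counts scaled to library size, scaled with TMM factors) in all libraries. The 7 markers of cerebellar and cortical neurons summed to 34.1 to 68.8 CPM, with Gabra6 at 0 in every group. Most of that sum was Calb1, at 48.8 CPM in saline superficial and 28.5 CPM in saline deep libraries. After saline Pcp2 was higher in superficial layers (5.17 against 0.449 CPM) and Neurod6 lower (1.91 against 6.23 CPM). Libraries of the same replicate number in both layers of a treatment deviated together. Both libraries of saline pool 1 held little Xist (0.572 and 1.94 CPM, against 187 to 1130 CPM elsewhere), and both of cbx pool 4 held no count of the Y-linked Ddx3y, marks of pools of one sex. Some of the results below are also given without these pools. Ddx3y ran from 30.5 to 70.8 CPM over all saline libraries and from 0 to 38.6 CPM over all cbx ones. Without these pools it still ran from 30.5 to 45.3 CPM after saline and from 16.0 to 38.6 CPM after cbx. Leaving them out thus does not balance this mark of sex between treatments. The part of sex in the cbx differences was not tested.

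Rarb is known as a gene that retinoic acid itself switches on through a repeated receptor site near its start, so the bases before the gene starts were read for such sites. The search covered 250 bases upstream of each start in RefSeq's promoter table (GRCm38.p6), where 7 of the 9 genes had an entry. The receptor half-site AGGTCA, its form GGGTCA, its form AGTTCA and its form GGTTCA were searched on both strands, and capitals mark every match. The promoter of Rarb is shown because it holds the repeat, and those of Aldh1a1, Aldh1a2 and Cyp26b1 because these genes had the highest mean CPM of the 9 in the superficial libraries. The windows are chr14:16575477-16575726 on the minus strand for Rarb, chr19:20601718-20601967 on the plus strand for Aldh1a1 (the second of its windows), chr9:71215539-71215788 on the plus strand for Aldh1a2 and chr6:84593811-84594060 on the minus strand for Cyp26b1. Each is written 5′ to 3′ in the direction of its gene.
Rarb: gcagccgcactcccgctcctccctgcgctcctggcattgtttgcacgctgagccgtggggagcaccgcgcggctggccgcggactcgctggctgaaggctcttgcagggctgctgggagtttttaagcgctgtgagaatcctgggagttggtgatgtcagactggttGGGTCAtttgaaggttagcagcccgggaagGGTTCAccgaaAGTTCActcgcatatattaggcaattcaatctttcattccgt
Aldh1a1: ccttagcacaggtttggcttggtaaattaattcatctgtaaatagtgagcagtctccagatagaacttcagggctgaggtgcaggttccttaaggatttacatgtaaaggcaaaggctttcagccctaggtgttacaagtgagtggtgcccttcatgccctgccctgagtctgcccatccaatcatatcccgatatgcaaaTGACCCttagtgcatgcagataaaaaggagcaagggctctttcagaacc
Aldh1a2: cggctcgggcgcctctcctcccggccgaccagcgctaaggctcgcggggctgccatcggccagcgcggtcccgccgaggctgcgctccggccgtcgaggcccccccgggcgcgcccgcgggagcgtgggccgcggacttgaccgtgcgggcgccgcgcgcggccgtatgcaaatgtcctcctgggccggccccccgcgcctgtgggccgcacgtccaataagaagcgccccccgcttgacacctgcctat
Cyp26b1: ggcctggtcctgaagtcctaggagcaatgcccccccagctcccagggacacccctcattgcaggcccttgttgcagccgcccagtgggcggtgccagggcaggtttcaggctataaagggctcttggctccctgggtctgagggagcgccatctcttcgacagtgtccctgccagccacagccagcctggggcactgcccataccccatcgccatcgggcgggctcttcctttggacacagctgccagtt

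The Rarb window held 3 half-sites. A pair of them formed a direct repeat with a gap of 5 bases, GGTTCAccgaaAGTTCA, at chr14:16575513-16575529, from 53 to 37 bases before the gene start, and GGGTCA stood 83 bases before it. Such a repeat with a gap of 5 bases occurred in 29 of 32851 promoter windows of the same length (0.0883%), one with a gap of 2 bases in 0.174% and one with a gap of 1 base in 0.164%. A single half-site was found in 38.6% of windows. The second window of Aldh1a1 held 1 half-site, 49 bases before the start, and the first window of Rbp4 held 1 as well. The windows of Aldh1a2, Crabp1, Cyp26b1 and Stra6 had none of these letters, and that of Aldh1a2 was 77.6% G and C. These matches describe the sequence only; no binding was measured.

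Per kilobase of merged exon, which allows levels of different genes to be compared, Aldh1a2 led in the saline superficial libraries at 11 CPM per kb. Cyp26b1 followed at 6.32, Crabp1 at 4.34, Aldh1a1 at 2.82, Crabp2 at 2.19, Rbp4 at 1.22, Stra6 at 0.515, Rarb at 0.289 and Aldh1a3 at 0.0279 CPM per kb. Aldh1a1 overlapped Crabp2, and Stra6 overlapped Rarb; the other neighbours in this order did not overlap between libraries. In the saline deep libraries the order was led by the carrier and the clearing enzyme, Crabp1 at 8.04 and Cyp26b1 at 5.39 CPM per kb, whose libraries overlapped, while Aldh1a2 stood at 0.452 and Aldh1a1 at 0.320. In the cbx superficial libraries Aldh1a2 (20.8 CPM per kb), Crabp2 (8.35), Cyp26b1 (6.03), Aldh1a1 (5.85) and Crabp1 (3.48) each overlapped their neighbour in the order. The deep order after cbx again began with Crabp1 (8.32) and Cyp26b1 (3.27), which no longer overlapped.

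**Figure D1:**
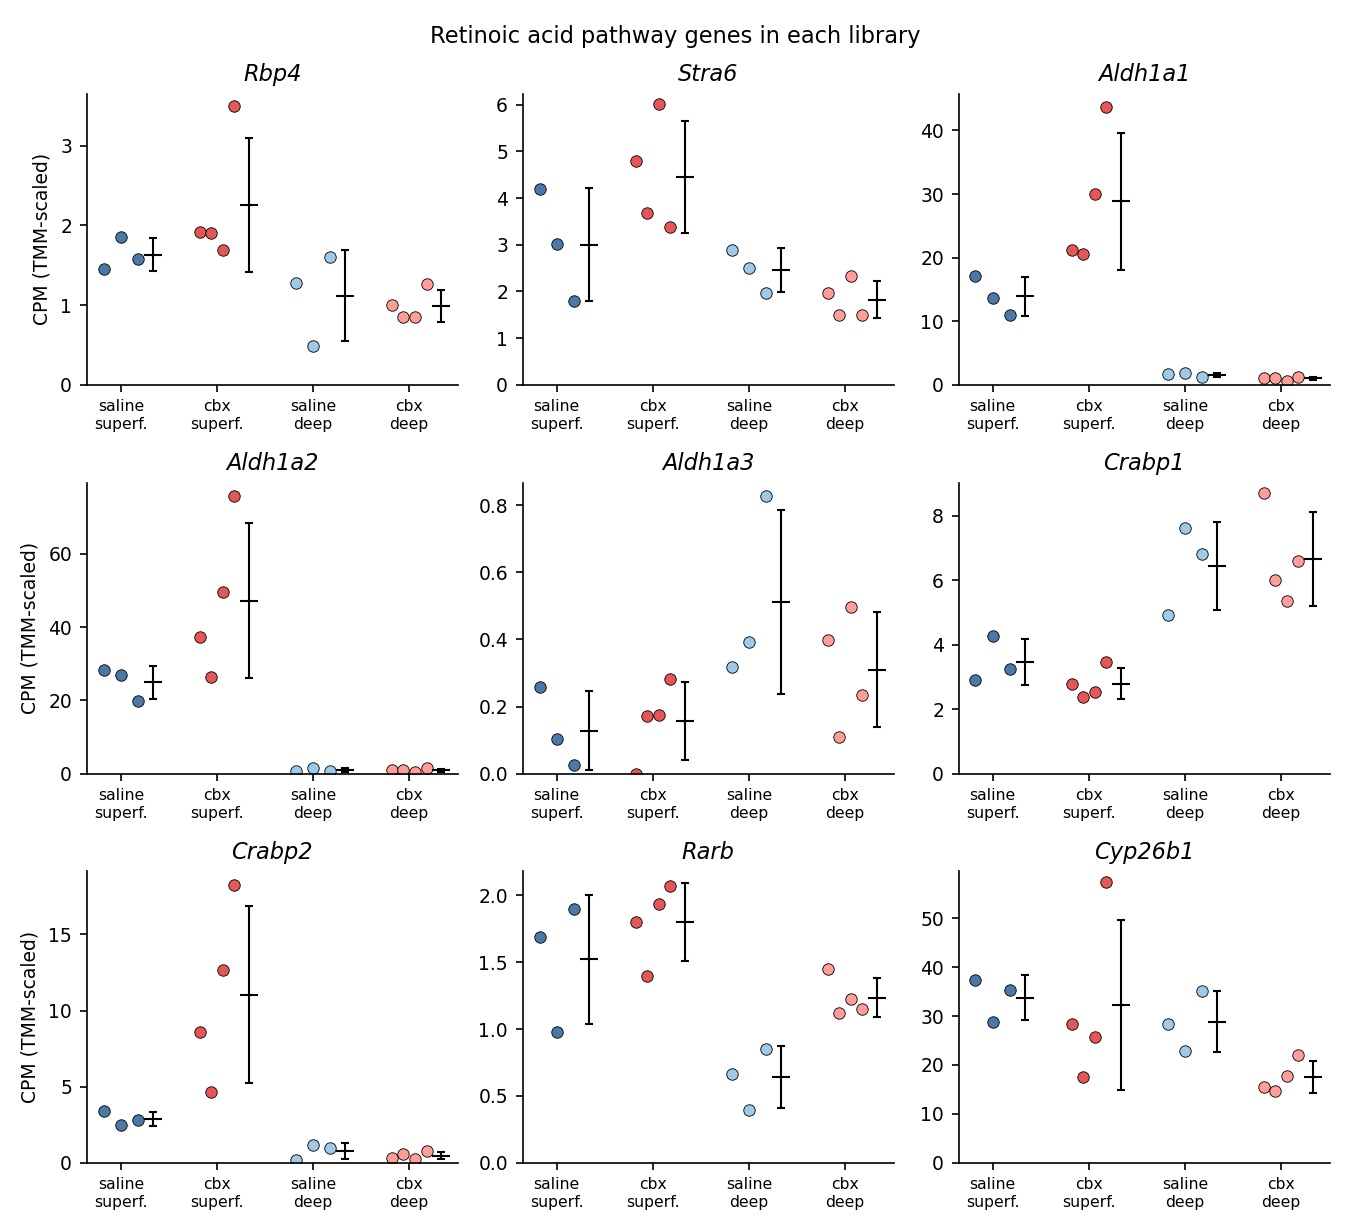
Levels of the 9 genes in each of the 14 libraries, in CPM scaled with TMM factors on a linear axis from 0, by layer and treatment. Points are libraries in order of replicate number, and the bar beside them is the mean with its SD. Aldh1a1, Aldh1a2 and Crabp2 are high in superficial libraries and near 0 in deep ones, and Crabp1 is higher in deep libraries.

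Carrier and receptor of retinol were low in all groups. Rbp4, the blood carrier of retinol (ENSMUSG00000024990), measured 1.46, 1.86 and 1.58 CPM in saline superficial libraries and 1.92, 1.91, 1.69 and 3.5 CPM in cbx superficial ones. In deep libraries it measured 1.27, 0.483 and 1.60 CPM after saline and 1.01, 0.846, 0.846 and 1.27 CPM after cbx. The superficial groups overlapped, with cbx replicate 4 well above the rest, and the deep groups overlapped too. The cbx superficial libraries all lay above the cbx deep ones, a log2 difference of 1.19 (SE 0.31), against 0.54 (SE 0.36) between the saline layers, which overlapped. The superficial cbx difference was 0.47 (SE 0.32) with all libraries and 0.17 (SE 0.32) without cbx superficial replicate 4.

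Stra6, the cell-surface receptor that takes retinol from Rbp4 (ENSMUSG00000032327), measured 4.20, 3.02 and 1.79 CPM in saline superficial libraries and 4.79, 3.67, 6.01 and 3.37 CPM in cbx superficial ones. Deep libraries gave 2.89, 2.51 and 1.96 CPM after saline and 1.97, 1.5, 2.33 and 1.5 CPM after cbx. All 4 cbx superficial libraries exceeded all 4 cbx deep ones, by 1.29 on the log2 scale (SE 0.25), whereas the layers overlapped after saline (0.29, SE 0.29). The treatments overlapped in both layers, the superficial difference being 0.57 (SE 0.26) and the deep one -0.42 (SE 0.27). Without saline pool 1 and cbx pool 4 the superficial difference was 1.00 (SE 0.29).

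Of the 3 synthesising enzymes, Aldh1a1 and Aldh1a2 were high in superficial and low in deep layers, and Aldh1a3 was barely detected. Aldh1a2, the main retinoic acid synthesising enzyme of many embryonic tissues (ENSMUSG00000013584), measured 28.2, 26.8 and 19.9 CPM in saline superficial libraries and 0.731, 1.54 and 0.799 CPM in saline deep ones. The cbx superficial libraries gave 37.3, 26.3, 49.4 and 75.6 CPM and the cbx deep ones 0.985, 0.901, 0.583 and 1.56 CPM. The layers were far apart in each treatment, by 4.61 on the log2 scale after saline (SE 0.47; 24.3-fold) and 5.55 after cbx (SE 0.40; 46.9-fold). Between treatments the superficial libraries overlapped, because cbx replicate 2 lay below 2 of the saline libraries. The fitted superficial cbx difference was 0.92 (SE 0.33), and 0.60 (SE 0.25) without cbx superficial replicate 4; in the deep layers it was -0.03 (SE 0.57).

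Aldh1a1, which makes retinoic acid from retinaldehyde and is known from the dorsal retina and from dopaminergic neurons (ENSMUSG00000053279), measured 17.2, 13.6 and 11 CPM in saline superficial libraries. The cbx superficial libraries gave 21.3, 20.5, 30.0 and 43.7 CPM, all above the saline ones. Deep libraries gave 1.72, 1.78 and 1.24 CPM after saline and 1.13, 1.06, 0.671 and 1.15 CPM after cbx, with every cbx library below every saline one. The layers differed by 3.14 (SE 0.32; 8.81-fold) after saline and 4.83 (SE 0.29; 28.5-fold) after cbx. With cbx the level was 1.06 higher on the log2 scale in the superficial layers (SE 0.25; 2.08-fold) and 0.64 lower in the deep layers (SE 0.36). The superficial value was 0.79 (SE 0.18) without cbx superficial replicate 4 and 0.96 (SE 0.20) without saline pool 1 and cbx pool 4. In the deep layers the difference rests on 23 to 59 counts per library.

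Aldh1a3, the third enzyme of this family (ENSMUSG00000015134), had 139 counts over all 14 libraries. Saline superficial libraries held 9, 4 and 1 counts and cbx superficial ones 0, 6, 7 and 11. The library with 0 counts allows a level of up to 0.0915 CPM, taking 3 counts as the limit, for counting error only. Saline deep libraries held 10, 13 and 30 counts (0.318, 0.393 and 0.826 CPM) and cbx deep ones 19, 4, 17 and 8. After saline the deep libraries lay above the superficial ones, opposite to Aldh1a1 and Aldh1a2, at a superficial minus deep log2 difference of -1.99 (SE 0.82). This value ran from -2.92 (without saline superficial replicate 1) to -1.46 (without saline deep replicate 3) when 1 library was left out, and was -3.17 without saline pool 1 and cbx pool 4. Other contrasts of Aldh1a3 overlapped.

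The carriers of retinoic acid inside the cell split by layer. Crabp1, which binds retinoic acid in the cytoplasm (ENSMUSG00000032291), measured 4.93, 7.61 and 6.80 CPM in saline deep libraries and 8.72, 6.01, 5.37 and 6.60 CPM in cbx deep ones. Superficial libraries were lower, at 2.91, 4.28 and 3.24 CPM after saline and 2.78, 2.39, 2.53 and 3.48 CPM after cbx. The layers did not overlap, with superficial minus deep log2 differences of -0.89 (SE 0.21) and -1.26 (SE 0.19). The treatments overlapped in both layers, at -0.32 (SE 0.21) and 0.05 (SE 0.19).

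Crabp2, which carries retinoic acid to its receptors in the nucleus (ENSMUSG00000004885), measured 3.40, 2.50 and 2.79 CPM in saline superficial libraries and 8.57, 4.67, 12.7 and 18.2 CPM in cbx superficial ones. No cbx library reached down to the saline values, but the 4 cbx libraries were far apart, with a mean of 11 CPM (SD 5.80, n = 4). The fitted difference was 1.93 (SE 0.48; 3.82-fold), 1.58 (SE 0.45) without cbx superficial replicate 4, and 1.71 (SE 0.36) without saline pool 1 and cbx pool 4. Deep libraries were low, at 0.159, 1.18 and 0.964 CPM after saline and 0.335, 0.546, 0.233 and 0.766 CPM after cbx, and they overlapped (-0.74, SE 0.68). The layers did not overlap, at 1.89 (SE 0.60) after saline and 4.57 (SE 0.54) after cbx.

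Rarb, the receptor gene whose promoter carries the repeat shown above (ENSMUSG00000017491), measured 0.667, 0.393 and 0.854 CPM in saline deep libraries and 1.45, 1.12, 1.22 and 1.15 CPM in cbx deep ones. Superficial libraries gave 1.69, 0.980 and 1.90 CPM after saline and 1.80, 1.39, 1.94 and 2.07 CPM after cbx. The deep cbx libraries all lay above the deep saline ones, a log2 difference of 0.95 (SE 0.31), while the superficial treatments overlapped at 0.25 (SE 0.28). The saline layers did not overlap (1.24, SE 0.32), and the cbx layers did (0.54, SE 0.26). All of these values rest on 13 to 81 counts per library. They are also uncertain because exons of Rarb overlap Top2b, a topoisomerase gene on the other strand with 6222 to 11170 counts per library, and whether counting used the strand is not given in the sources used here. Top2b itself differed by 0.05 (SE 0.096) between treatments in the deep layers and by 0.11 (SE 0.10) between the saline layers.

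Cyp26b1, the enzyme that clears retinoic acid (ENSMUSG00000063415), was the only breakdown enzyme of its family that passed the low-count filter. Cyp26a1 had 18 counts and Cyp26c1 6 counts over all libraries. Cyp26b1 measured 28.5, 22.8 and 35.2 CPM in saline deep libraries and 15.5, 14.7, 17.8 and 21.9 CPM in cbx deep ones, so that every deep cbx library lay below every deep saline one. The difference was -0.73 (SE 0.34), and -0.86 (SE 0.22) without saline pool 1 and cbx pool 4. Superficial libraries gave 37.4, 28.7 and 35.3 CPM after saline and 28.4, 17.5, 25.7 and 57.4 CPM after cbx. These overlapped, with 3 of the 4 cbx libraries below all saline ones and replicate 4 above them, at -0.06 (SE 0.34). Without cbx superficial replicate 4 the superficial value was -0.50 (SE 0.20). The layers overlapped in both treatments, at 0.23 (SE 0.36) and 0.89 (SE 0.32).

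**Figure D2:**
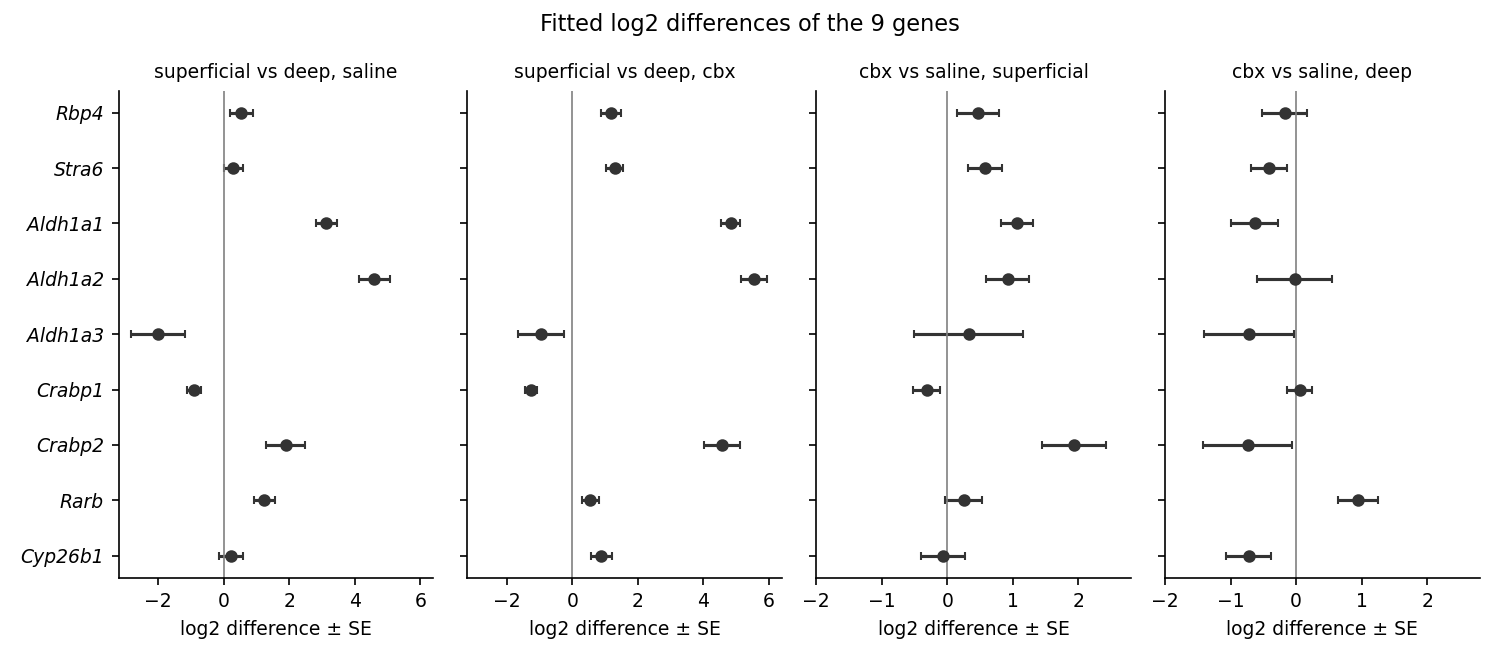
Fitted log2 differences of the 9 genes in the 4 comparisons, with bars of 1 SE from the edgeR model of all 14 libraries. The left panels share an axis that is wider than that of the right panels. Aldh1a1, Aldh1a2 and Crabp2 lie above 0 in both layer comparisons and Crabp1 below, and in the cbx comparisons Aldh1a1 is above 0 in superficial and below 0 in deep layers.

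Counts over the 9 genes were read beside the share of all 20330 tested genes. Because the genes were chosen with these contrasts known, nothing is drawn from the counts. Between the saline layers, 5 of the 9 passed an adjusted p of 0.05 in edgeR's quasi-likelihood test with Benjamini-Hochberg adjustment over all genes (18.4% of all genes did). Aldh1a1, Aldh1a2, Crabp2 and Rarb were the 4 higher in superficial layers (9.67% of all genes) and Crabp1 the 1 lower (8.73%). Without saline pool 1 and cbx pool 4, 3 of the 9 passed, where fewer of all genes passed as well. Between the cbx layers 6 passed (32.2% of all genes), with Aldh1a1, Aldh1a2, Crabp2, Rbp4 and Stra6 higher (18.1%) and Crabp1 lower (14.1%). Cyp26b1 also passed there in 5 of 22 alternatives, among them DESeq2 and the fit with pool as a block, at 0.78 in the latter. With cbx in the superficial layers, Aldh1a1 and Crabp2 passed (4.33% of all genes), both higher (2.68% of all genes were called higher and 1.65% lower). In the deep layers none of the 9 did (1.83% of all genes, 1.06% higher and 0.777% lower), and DESeq2 and limma-voom also called 0. There 1 of the 9 and 3118 of all genes had an unadjusted p under 0.05. The deep difference of Cyp26b1 passed in 3 of 23 alternatives, among them the fit with replicate number as a fixed term, where the numbers share only a name.

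The superficial cbx call of Crabp2 was the least settled. It was kept in 6 of 23 alternatives and lost in 17, among them the fits without saline superficial replicate 1, 2 or 3, without cbx superficial replicate 1, 3 or 4, and limma-voom both without a block and with pool as a random term. That of Aldh1a1 was kept in 20 of 23, and lost with only the compared groups in the fit and without saline superficial replicate 2 or 3. The superficial call of Crabp2 between the saline layers was kept in 7 of 22, and that of Rarb in 20 of 22, being lost without saline deep replicate 2 and without saline pool 1 and cbx pool 4.

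By the plain criterion that libraries of both groups do not overlap, 2 of the 9 genes were higher with cbx in the superficial layers and none lower (17.3% of all genes did not overlap, 8.96% higher and 8.29% lower). In the deep layers 1 was higher, Rarb, and 2 were lower, Aldh1a1 and Cyp26b1 (16% of all genes, 7.96% higher and 8.05% lower). Between the layers 4 were higher and 2 lower in superficial libraries after saline (36.7% of all genes, 20.2% higher and 16.5% lower), and 5 higher and 1 lower after cbx (29.6%, 16.7% higher and 13% lower). The median log2 difference of the 9 genes was 0.47 with cbx in the superficial layers, against 0.01 over all genes, and -0.42 in the deep layers, against 0.01. Between layers it was 0.54 after saline (0.04 over all genes) and 1.19 after cbx (0.02). The comparisons share libraries, so these medians are not independent of each other.

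Whether the cbx difference itself depended on layer was fitted as an interaction. The value was 1.69 for Aldh1a1 (SE 0.43), 2.67 for Crabp2 (SE 0.83), 0.99 for Stra6 (SE 0.38), 0.95 for Aldh1a2 (SE 0.66), 0.66 for Cyp26b1 (SE 0.48), 0.65 for Rbp4 (SE 0.47), 1.05 for Aldh1a3 (SE 1.08), -0.37 for Crabp1 (SE 0.28) and -0.70 for Rarb (SE 0.41). None of the 9 passed the threshold, and none of all 20330 genes did (0%). At an unadjusted p under 0.05 there were 3 of the 9 and 1699 of all genes. DESeq2 called 1 of the 9 and limma-voom 0. With pool as a block, which fits both layers of a pool together, 1 of the 9 passed, Aldh1a1, at 1.64.

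The remaining genes of the pathway were read from 6 lists of 50 genes in all, of which 41 passed the low-count filter. These were tested. With cbx in the superficial layers 1 of the 41 rose, Meis1, and none fell, where 4.33% of all genes passed and 2.68% rose. Without saline pool 1 and cbx pool 4, 0 passed in edgeR. At an unadjusted p under 0.05 there were then 5 of them, beside 3159 of 20908 genes tested. Meis1, a homeobox gene known to respond to retinoic acid, lay between 23.5 and 24.7 CPM in saline and between 28.1 and 35.0 CPM in cbx superficial libraries (0.37, SE 0.091, adjusted p = 0.0265, edgeR). Its call was lost in 7 alternatives, with adjusted p values of 0.0565 to 0.109 (edgeR); 5 of these left out 1 superficial library, namely saline replicate 1, 2 or 3 or cbx replicate 1 or 2.

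In the deep layers 0 of the 41 genes passed in edgeR, beside 1.83% of all genes, and DESeq2 and limma-voom called 0. At an unadjusted p under 0.05 there were 7 of the 41 and 3118 of all 20330 genes. The interaction called 0 of the 41 in edgeR, DESeq2 and limma-voom. Its 4 genes at an unadjusted p under 0.05 are to be read beside the count over all genes given above. In the superficial layers Cyp1b1 passed in limma-voom both without a block (adjusted p = 0.0172) and with pool as a random term (0.69, adjusted p = 0.0149), against an adjusted p of 0.0541 in edgeR. Tgm2 passed in limma-voom with pool as a random term (0.56, adjusted p = 0.0496) but not without it (adjusted p = 0.0545), and had an adjusted p of 0.0768 in edgeR.

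**Figure D3:**
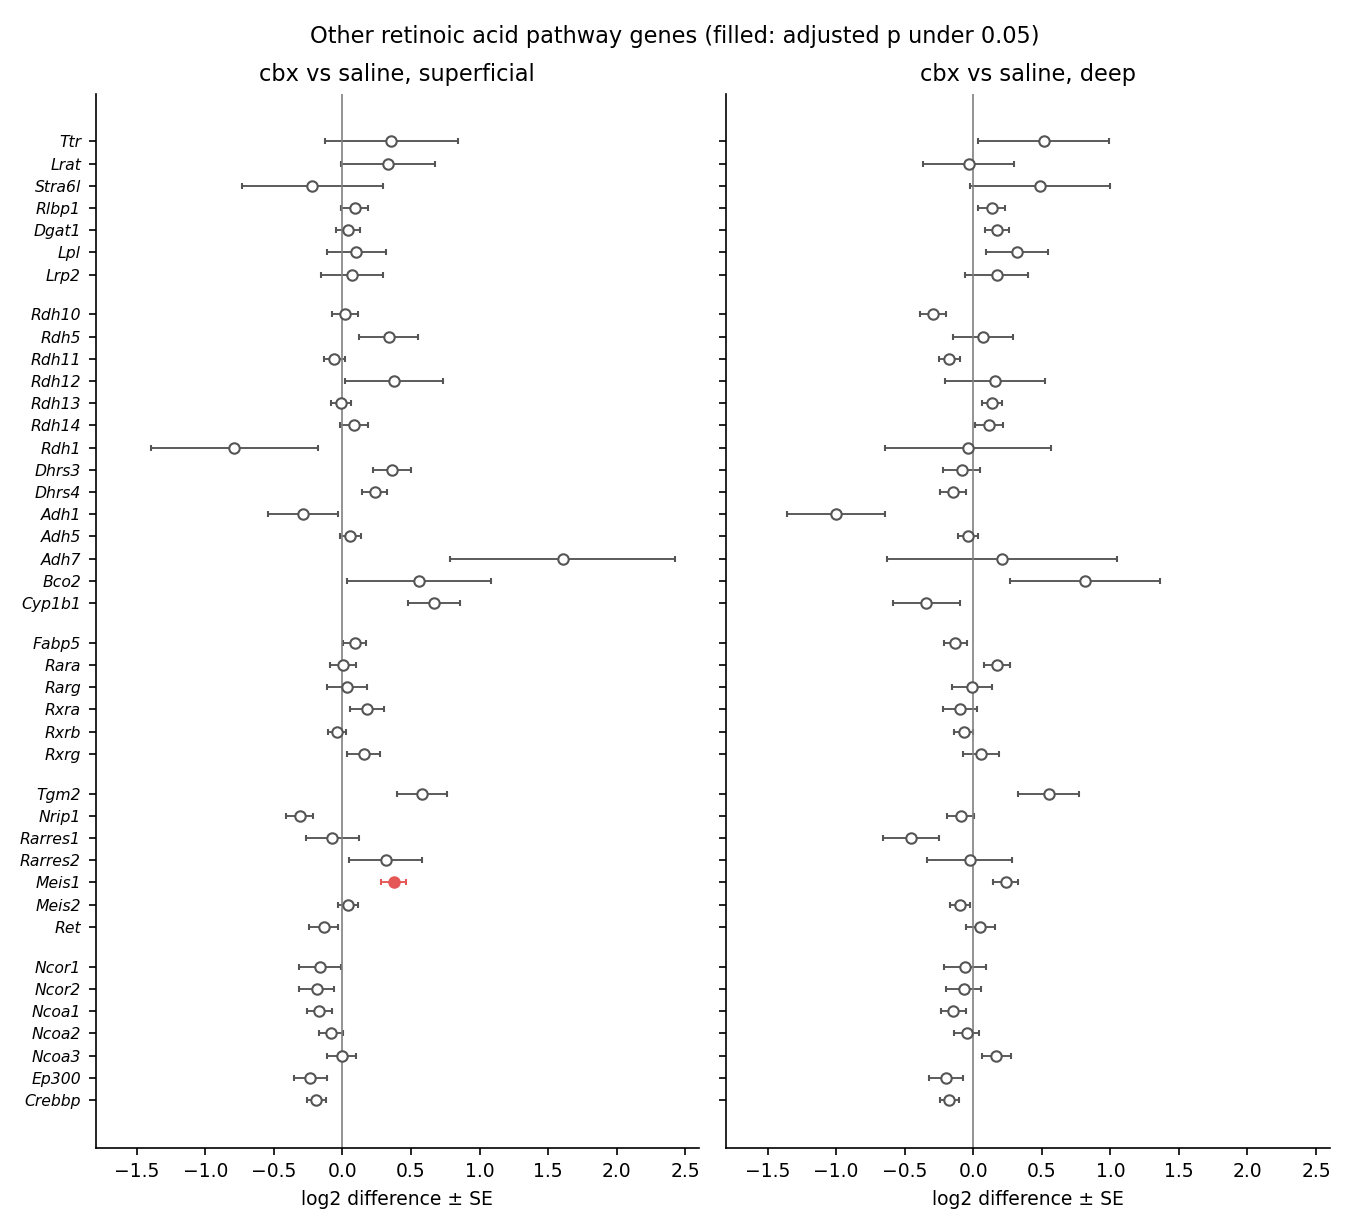
Log2 differences between cbx and saline of the 41 other pathway genes that were tested, in superficial (left) and deep (right) layers, with bars of 1 SE. Genes stand in list order, from carriers at the top through oxidoreductases, carriers and receptors of retinoic acid and target genes to receptor cofactors. Filled points passed an adjusted p of 0.05, which 1 gene did on the left (Meis1) and none on the right.

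Between the layers more of the 41 genes passed, as did more of all genes. After saline 9 were higher in the superficial layers and 1 was lower, where 9.67% of all genes were higher and 8.73% lower. After cbx 17 were higher and 2 lower, where 18.1% of all genes were higher and 14.1% lower. Among the carriers and stores of retinol, 0 of 7 tested genes passed in either treatment in edgeR, DESeq2 or limma-voom. At an unadjusted p under 0.05 there was 1 after saline (5917 of all 20330 genes) and 0 after cbx. Of 14 tested oxidoreductases of retinol and retinaldehyde, 3 were higher after saline and 7 higher and 1 lower after cbx, to be read beside the same shares of all genes. Without saline pool 1 and cbx pool 4, 2 of them passed after saline and 6 after cbx. The cytochrome Cyp1b1 differed by 2.82 and 3.83, with means of 17.4 against 2.44 CPM and 27.6 against 1.96 CPM. The alcohol dehydrogenase Adh1 differed by 2.75 and 3.46. Adh5 was higher in superficial than in deep layers by 0.26 after saline (adjusted p = 0.0307, edgeR), which 8 alternatives did not keep. The retinol dehydrogenase Rdh10 makes retinaldehyde for the Aldh1a enzymes. Between the cbx layers it was higher in the superficial ones (0.47, SE 0.088, adjusted p = 0.000331, edgeR), and so was Dhrs4, by 0.48.

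Among the other receptors and carriers of retinoic acid, 3 of 6 were higher in superficial layers after saline and 5 of 6 after cbx. Without saline pool 1 and cbx pool 4, 3 of the 6 passed in each treatment. The retinoid X receptor Rxrg differed by 1.42 (SE 0.14) and 1.52 (SE 0.12), at means of 21.3 against 7.95 CPM after saline. Rara differed by 0.64 and 0.47, and Fabp5, a fatty acid carrier that also binds retinoic acid, by 0.52 and 0.74. Between the cbx layers Rxra was higher in the superficial ones by 0.36 (adjusted p = 0.0198, edgeR). This call was lost without cbx deep replicate 2, without cbx superficial replicate 3 or 4, and without saline pool 1 and cbx pool 4.

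Of 7 tested genes known to be induced by retinoic acid, 3 were higher and 1 lower in superficial layers after saline. Between the cbx layers 5 were higher and 1 lower in the superficial ones. Tgm2, a transglutaminase, differed by 2.39 (SE 0.22) and 2.42 (SE 0.18), Rarres2 by 1.67 and 2.01, and Meis1 by 0.51 and 0.64. Ret, a receptor tyrosine kinase, ran the other way at -0.64 (SE 0.12, adjusted p = 0.000455, edgeR) and -0.83 (SE 0.10). None of the 7 receptor corepressors and coactivators passed in any of the 4 group comparisons in edgeR, DESeq2 or limma-voom. In each cbx comparison 1 had an unadjusted p under 0.05, beside 4179 of all 20330 genes in superficial and 3118 in deep layers. With pool as a block, Rarres1 (0.51, adjusted p = 0.00389, edgeR) and Nrip1 (0.25, adjusted p = 0.0185, edgeR) also passed between the saline layers. Over the 41 genes the median superficial minus deep log2 difference was 0.10 after saline and 0.19 after cbx, beside 0.04 and 0.02 over all genes.

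Markers of other cell types moved with several of these genes. The 18 markers of meningeal fibroblasts, led by the collagens Col1a2, Col3a1 and Col1a1, summed to 794 to 1193 CPM in saline superficial, 1066 to 2099 in cbx superficial, 104 to 121 in saline deep and 68.7 to 91.0 CPM in cbx deep libraries. None of the 18 was at 0 in a whole group. With cbx, 8 of the 18 rose and none fell in the superficial layers (median log2 difference 0.72). In the deep layers none passed in edgeR (median -0.44), 1 in DESeq2 and 0 in limma-voom. There 5 of the 18 and 3118 of all 20330 genes had an unadjusted p under 0.05. Without saline pool 1 and cbx pool 4 the superficial count was 2 of 18. Between the layers 17 of 18 were higher in the superficial layers after saline and 18 of 18 after cbx. In bulk tissue, fewer cells of a type and less RNA per cell cannot be told apart. The part of these markers in the differences of Aldh1a1, Aldh1a2, Crabp2 and the other genes was not tested.

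Values per 100 CPM of the summed meningeal markers were then computed, a measure chosen after the data were seen. Aldh1a1 came to 1.38 to 1.44 CPM per 100 CPM in saline superficial libraries and 1.86 to 2.08 in cbx superficial ones, which did not overlap. Crabp2 came to 0.261 to 0.352 and 0.438 to 0.868, which did not overlap either. Aldh1a2 came to 2.36 to 2.8 and 2.47 to 3.60, which overlapped. The sum is mostly collagen: Col1a1, Col1a2 and Col3a1 made up 66.3% to 67.6% of it in saline and 58.1% to 65.5% in cbx superficial libraries, and their log2 differences with cbx were 0.51, 0.54 and 0.44. Marker by marker, 6 of the 18 had a superficial cbx difference at least as large as the 1.06 of Aldh1a1, 8 of 18 one at least as large as the 0.92 of Aldh1a2, and 1 of 18, Slc47a1 (2.08), one at least as large as the 1.93 of Crabp2. Aldh1a1, Aldh1a2 and Crabp2 lay within the range of the markers, 0.34 to 2.08. Slc47a1, the only marker above Crabp2, averaged 0.492 CPM in saline superficial libraries (SE of its difference 0.55). For the interaction, 3 of 18 markers were at least as high as Aldh1a1, 13 as Aldh1a2 and 0 as Crabp2 (2.67, marker maximum 1.92). Per 100 CPM of markers, Aldh1a1 in the deep layers came to 1.19 to 1.59 after saline and 0.745 to 1.59 after cbx. What part meningeal content has in the cbx differences was not tested.

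**Figure D4:**
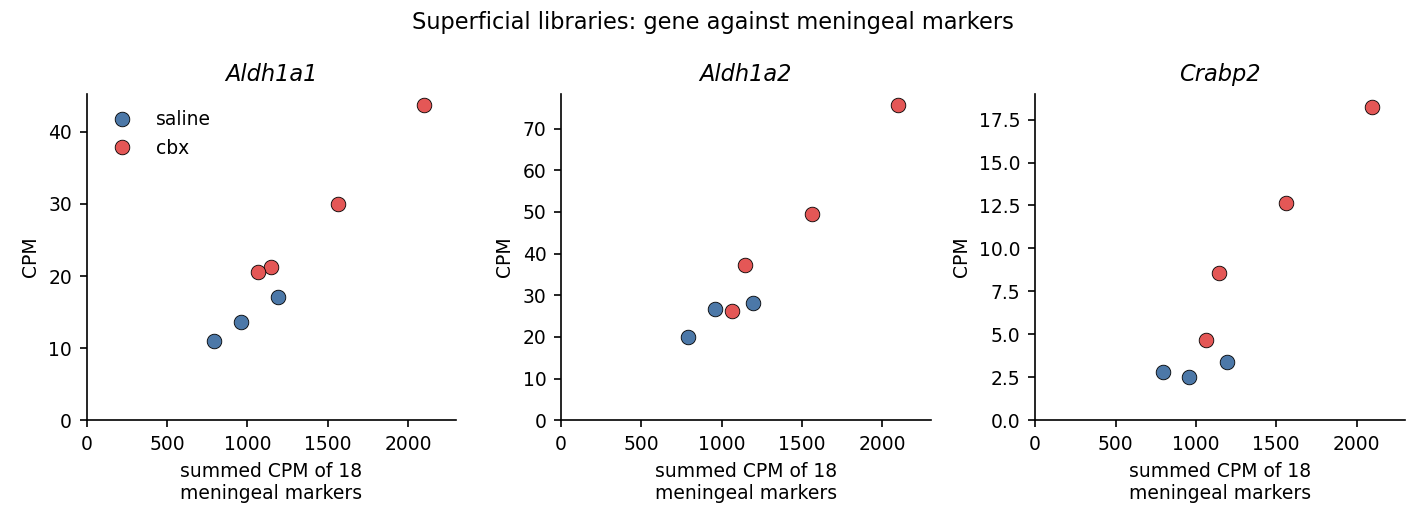
CPM of Aldh1a1, Aldh1a2 and Crabp2 against the summed CPM of 18 meningeal markers in the 7 superficial libraries, on linear axes from 0, with saline in blue and cbx in red. The library farthest to the right in each panel is cbx replicate 4, at 2099 CPM of markers. Among libraries with 1066 to 1193 CPM of markers, the cbx points for Aldh1a1 (21.3 and 20.5 CPM) lie above the only saline one (17.2 CPM). That saline library is replicate 1, of the pool with little Xist, so these few points do not separate treatment from pool.

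Several other marker lists also moved. In the superficial layers 11 microglia and macrophage markers summed to 223 to 271 CPM after saline and 309 to 375 CPM after cbx, and 6 of the 11 rose (median log2 difference 0.50; 2 rose without saline pool 1 and cbx pool 4). The 6 red blood cell markers summed to 149 to 231 and 238 to 389 CPM; all 6 had values above 0 at a median log2 difference of 0.77, against 0.72 for the meningeal markers, and 1 passed (0 without saline pool 1 and cbx pool 4). Choroid plexus markers summed to 203 to 215 and 187 to 249 CPM, with none of 9 past the threshold in edgeR. At an unadjusted p under 0.05 there were 2 (4179 of all 20330 genes), and DESeq2 called 1 and limma-voom 0. Most of that sum was Otx2, at means of 195 and 203 CPM, so the sum mostly follows this gene and says little of the other markers. Kl (0.92) and Aqp1 (0.74) were the 2 of 9 higher with cbx without overlap, beside 8.96% of all genes. By fitted value 5 of the 9 were above 0 and 4 below. Markers of midbrain dopaminergic neurons were low, at 9.28 to 14.5 CPM summed over 8 genes in superficial and 17.0 to 19.6 CPM in deep libraries. Foxa1 was at 0 in both superficial groups. Slc18a2 and Ddc made up most of this sum. After saline Ddc was lower in superficial layers (2.87 against 9.05 CPM), while Th overlapped (0.272 against 0.206 CPM). Of the 6 tested markers, 1 had a superficial minus deep value above 0 and 5 below, in each treatment. Between the layers, 5 of 8 endothelial markers were higher in the superficial layers in each treatment and 1 was lower (medians 0.77 after saline and 0.69 after cbx). Of 9 choroid plexus markers 4 were higher after saline and 5 after cbx, of 8 pericyte and vascular muscle markers 4 and 5, and of 6 red blood cell markers 0 and 5. After cbx 1 choroid plexus marker (Slc4a5) and 1 pericyte marker (Abcc9) were lower, and after saline 0 of these lists were. Of the 8 markers of astrocytes and radial glia 2 were higher after saline and 4 after cbx, and 1, Slc1a2, was lower in each treatment. Gfap, at 455 against 6.73 CPM after saline, stood far above the list's median log2 difference of 0.12 (0.38 after cbx). With cbx 1 of the 8 astrocyte and radial glia markers passed in each layer. Slc1a3 was lower in the superficial (-0.32) and Sox9 in the deep layers (-0.42), where 1.65% and 0.777% of all genes were called lower. The median log2 difference of the 8 was -0.13 in superficial and -0.20 in deep layers. Without saline pool 1 and cbx pool 4, 0 passed in either layer. The part of these lists in the results was not tested.

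The genes whose levels ran closest to each of the 9 were found by Pearson's r of log2 CPM over the 14 libraries among 13692 genes. The libraries share 4 groups and their pools, so r is a description. Aldh1a1 was closest to Tm4sf1 (r = 0.996), Aebp1 (0.992) and Slc22a6 (0.992), and Aldh1a2 to Ogn (0.995), Fmod (0.995) and Col4a6 (0.994). Slc22a6 and Ogn are among the 18 meningeal markers. Crabp2 was closest to Twist1 (0.981), also one of them, then Serping1 (0.968) and Dpp4 (0.962). Crabp1, which is higher in deep layers, had Ss18l1 (0.963) and Doc2a (0.944) among its nearest genes. The nearest genes were less close for Stra6 (Agt, 0.919; Cat, 0.915; Slc26a7, 0.906), Rbp4 (Trip6, 0.911; Mxra7, 0.908; Pskh1, 0.888), Rarb (Egr1, 0.888; Zfp623, 0.877; Dhx35, 0.869) and Cyp26b1 (H2-K1, 0.833; Filip1l, 0.823; Pias2, 0.815). Aldh1a3 was too low to be compared in this way.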

How the data were processed

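Bulk, poly-A selected RNA was sequenced as pairs of 150 bases in 14 libraries, per the labels' protocols. Each library has its own deposited table of raw read counts by gene, in whole numbers. The tools named, per the submitters' processing notes, are STAR 2.7.9d, FastQC 0.11.9, Subread 2.0.1 with featureCounts, and SAMtools 1.14. The builds GRCm39 and mm10 stand there side by side with no stated use. Annotation and strand setting: not given in the sources used here. Reads of overlapping or antisense genes may therefore be shared between them. Of the IDs, 52083 had a symbol, and these took up 98.7% of counts. Gene types, exon lengths and exon overlaps came from the GENCODE M21 annotation and promoters from RefSeq; no coordinates were taken from the count tables.

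The fit used edgeR 4.0.16 (R 4.3.3): filterByExpr by group (20330 genes), TMM factors, a robust quasi-likelihood fit of 4 group means to all 14 libraries (10 residual degrees of freedom) and Benjamini-Hochberg adjustment over all genes at 0.05. The test was checked on simulated counts. CPM were scaled with TMM factors; log2 CPM used a prior count of 2. The labels do not say that libraries came from separate litters, so p-values measure only the spread between pooled libraries.

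The members, gene lists and marker lists were chosen with earlier results of these data known. Named were all 9 genes, every other pathway gene past the threshold in a cbx comparison or the interaction, up to 4 per list in each layer comparison, and the 3 genes closest to each member with a mean of at least 0.5 CPM among protein-coding genes with a mean of at least 1 CPM. Some genes that these rules or the lists would include are not reported here, and the counts over the lists leave them out. A few others are named beside counts after their values were seen.

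Titles give the replicate numbers. After subtraction of group means, libraries correlated between the layers of a pool number (r of 0.301 to 0.588 in all 7 pairs, over 12006 genes of at least 5 CPM; 0.182 to 0.394 at 1 CPM or more; 0.00501 to 0.18 over all 20330), so the numbers were taken to pair the layers, which the labels do not state; between treatments r was -0.387 to -0.0296 and the numbers share only a name. No 2 libraries were duplicates. Alternatives were other size factors, other filters, DESeq2 1.42.0, limma-voom (limma 3.58.1), a fit of the compared groups alone, leaving out each library or the pools of one sex, and replicate blocks.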

Additional observations from a re-analysis of the deposited data

Results flagged for a closer look

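In the cbx superficial group, Rbp4 measured 3.5 CPM in replicate 4 against 1.69 to 1.92 CPM in the other 3 libraries, which set it apart as a single high library. In the same group Rara measured 21.8 CPM in its lowest library against 25.5 to 25.8 CPM in the others. Among the 44 groups of 4 libraries examined in this way, chance sets about 1 in 20 apart.

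Aldh1a1 was higher in every cbx than in every saline library of the superficial layers and lower in every one of the deep layers. The difference between both cbx effects was 1.69 on the log2 scale. It did not pass the threshold in the fit of 4 group means. It passed in 3 of 21 alternatives, namely without the low-count filter, with DESeq2 and with pool as a block.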

How the results depend on the processing

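Over the 9 genes and 5 comparisons, 989 of 992 alternative log2 differences lay within 1 SD between replicates of the value given, and the other 3 were all of Aldh1a3, whose counts were few: without saline superficial replicate 1 and without saline pool 1 and cbx pool 4. For the named pathway genes 488 of 507 alternatives kept the call and 19 lost it, those of Adh5, Meis1 and Rxra. Small values changed sign in some alternatives: those of Cyp26b1 and Aldh1a3 with cbx in the superficial layers, of Aldh1a2, Crabp1 and Rbp4 in the deep layers, and of Stra6 between the saline layers; none of these had passed the threshold. The number of pathway genes that passed with cbx in the superficial layers was 1, against 4 without the low-count filter, 4 with DESeq2, 2 with limma-voom, 3 with pool as a random term, 0 with only the compared groups in the fit, 0 without saline pool 1 and cbx pool 4, and 0 to 3 when 1 library was left out; for the interaction it was 0, against 1 without the low-count filter.

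The number of all genes past the threshold depended more on the settings. With cbx in the superficial layers it was 880, against 1459 without the low-count filter, 1585 with DESeq2, 142 with only the compared groups in the fit, 91 without saline pool 1 and cbx pool 4, and 140 to 907 when 1 library was left out. In the deep layers it was 373, against 566, 901, 611 and 14 in the same order, and 42 to 737 when 1 library was left out. Between the saline layers it was 3739, against 2133 without saline pool 1 and cbx pool 4. For the interaction it was 0, against 256 without the low-count filter, 60 with DESeq2 and 0 to 14 when 1 library was left out. The cause was not tested, apart from there being fewer libraries where some were left out.

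As a replicate block, the number as a fixed term gave 480 genes in the superficial and 191 in the deep cbx comparison, where the numbers share only a name. With pool as a fixed block the interaction called 61 genes, the saline layers differed in 4662 and the cbx layers in 7602; with pool as a random term the cbx comparisons called 889 and 337. The fit with pool as a random term is limma-voom, so it differs from edgeR in tool as well as block. Beside limma-voom without a block it added the superficial call of Tgm2 among the pathway genes and changed no call of the 9 genes. Calls that differed from edgeR with pool as a fixed block are given with their genes; no other call among the 9 and the pathway genes did. At this depth Aldh1a3, Rarb and the deep-layer levels of Aldh1a1, Aldh1a2 and Crabp2 rest on under 100 counts per library.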
